A study of Mus musculus with 6 samples.

Results

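The transcripts examined here are those of 41 genes of fatty acid oxidation and ketone body metabolism in the mouse liver, chosen by name. All 41 had 1 row each in a table of 14499 genes. RNA-seq of total liver RNA gave 6 columns: 3 libraries of wild type (WT_DDC) and 3 in which Arid1a had been deleted in hepatocytes (Arid1a_KO_DDC, here the knockout). Arid1a encodes a subunit of the BAF chromatin remodelling complex. The mice of both groups were on a mixed C57Bl/6; 129Sv background, were 10 weeks old and had received DDC for 2 weeks, an agent that disturbs haem synthesis and damages bile ducts and hepatocytes. All 6 libraries thus come from DDC-treated liver, and no liver without DDC enters the comparison. The labels used here place the deletion in hepatocytes and do not give the state of Arid1a in other liver cells. They name neither the Cre driver nor the animal behind each library. The tests therefore speak only for the variation among these 6 libraries, which may be technical. Levels are in FPKM (fragments scaled to transcript length and sequencing depth), and differences are knockout minus wild type on the log2(FPKM + 1) scale.

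Arid1a itself was at 7.85, 5.48 and 5.98 FPKM across wild type and at 6.61, 5.01 and 3.81 FPKM in the knockout ones. The groups overlapped (limma adjusted p = 0.678); the labels do not give the deleted part of the gene, so its total level does not check them. Replicate 1 of both groups has library identifiers L0566 and L0567, and the other 4 libraries are L0602 to L0605. Replicate 1 also stood apart by hardly any Y-linked Ddx3y transcript (0.0527 and 0.0227 FPKM, against 9.27 to 11.3 FPKM in the others), and the labels give no sex. Y-linked Eif2s3y was at 0.190 and 0.0410 FPKM there, against 22.4 to 26.6 FPKM in the others. Library set and Y-linked transcripts thus coincide, and their parts in any result cannot be told apart. Results are therefore also given within each of these library sets.

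Fatty acids enter oxidation as acyl-CoA esters. Long chains cross into mitochondria as carnitine esters and are shortened there by a repeated cycle of dehydrogenation, hydration, a further dehydrogenation and thiolytic cleavage, while peroxisomes shorten very long and branched chains. In the fasting liver much of the acetyl-CoA that results is turned into the ketone bodies acetoacetate and beta-hydroxybutyrate and exported. The nuclear receptor PPAR-alpha, encoded by Ppara, is the best known transcriptional activator of these genes in hepatocytes.

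In DDC-treated livers with and without hepatocyte Arid1a, most transcripts of the oxidation pathway overlapped in level between the groups. For 4 of the 41 genes (9.76%) every knockout library was above every wild-type library, against 7.09% of all genes. Of the 41 genes 0 passed the threshold in limma (adjusted p under 0.05 over 11839 genes tested), in a comparison in which 0.49% of all genes did. At an unadjusted p under 0.05 there were 4, all higher in the knockout: the peroxisomal thiolase Acaa1b, the ketone body enzyme Bdh1, the carnitine transferase Crot and the dienoyl-CoA reductase Decr1. Of all genes 11.1% passed this level in either direction, 4.65% higher and 6.5% lower. The groups did not overlap for 4 genes, Acaa1b, Bdh1, Crot and Acot3, against 16.6% of all genes in either direction, 7.09% with the knockout higher and 9.56% with it lower. The median difference of the 41 genes was 0.12, against 0.0034 over all genes tested. For 37 of the 41 genes the 95% interval of the difference included 0. The median interval, not adjusted for the number of genes, reached 0.52 log2 units to either side. Moderate differences could therefore not be seen in 3 against 3 libraries, and even 1.27 for Acaa1b missed the threshold (limma adjusted p = 0.0982).

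**Figure D1:**
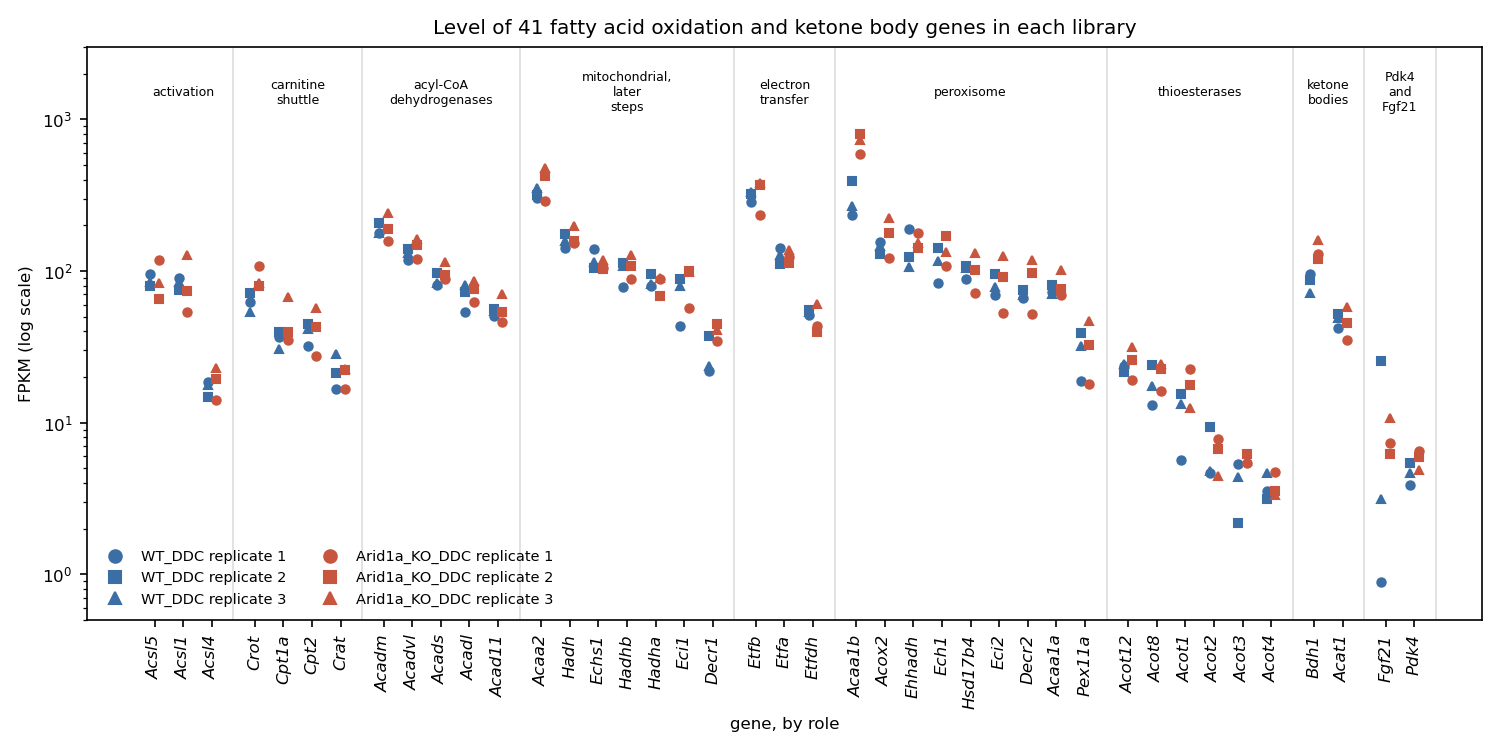
Level in FPKM (log axis) of each of the 41 genes, grouped by role and ordered by mean level within a role. Blue points are the 3 WT_DDC and red points the 3 Arid1a_KO_DDC libraries, with a marker shape for each replicate number. Most groups overlap, and Acaa1b, Bdh1, Crot and Acot3 are the genes whose red points all lie above the blue.

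Acaa1b encodes a mouse peroxisomal 3-ketoacyl-CoA thiolase, an enzyme of the last, cleaving step of the peroxisomal cycle. Its level was 235, 393 and 268 FPKM in wild-type replicates 1, 2 and 3 and 595, 796 and 732 FPKM in knockout replicates 1, 2 and 3. The lowest knockout library lay well above the highest wild-type library. Acaa1b was the most abundant gene of the 41 in the knockout, with a mean of 707.6 ± 102.8 FPKM against 298.5 ± 83.2 FPKM (SD, n = 3 each), a ratio of 2.37. An exact permutation test gave 0.1, the least that 3 against 3 can reach. The log2 difference was 1.27 (SE 0.23, 95% interval 0.72 to 1.81), with a limma adjusted p of 0.0982. It passed in 1 of 17 alternatives, a fit with a term for the library identifiers (limma adjusted p = 0.0476, a fit in which 0.279% of all genes were called higher), within a range of 0.0476 to 0.353 over all 17. The difference itself was 1.11 to 1.48 over these alternatives.

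Its paralog Acaa1a, which encodes another peroxisomal thiolase, was at 72.5, 81.3 and 70.8 FPKM in wild type, and at 69.0, 76.5 and 101.5 FPKM in knockout. These groups overlapped (log2 difference 0.12, SE 0.18, 95% interval -0.30 to 0.54). Acaa1b lies on chromosome 9 at 119148023 to 119157093 on the minus strand and Acaa1a at 119339676 to 119350299 on the plus strand (GRCm38, GENCODE M21), 182582 bases apart. The coding sequences, from GENCODE transcripts, are identical at 1228 of 1272 bases (96.5%), and 35.5% of all windows of 50 bases in the Acaa1b transcript also occur in Acaa1a. With Dlec1 counted as well, 46.2% of the Acaa1b windows also occur in another gene. Reads from such windows cannot be assigned with certainty, and how the authors' software split them is not stated. The level of the pair can be read without the split between Acaa1a and Acaa1b, though reads shared with Dlec1 stay uncertain in it. The summed level was 307, 474 and 339 FPKM across wild type and 664, 873 and 834 FPKM in knockout. The sum did not overlap between the groups either (exact permutation p = 0.1). The ratio of Acaa1b to Acaa1a, both per length, was 3.24, 4.83 and 3.78 in wild type and 8.62, 10.4 and 7.21 in knockout. Every knockout library thus had the higher ratio (exact permutation p = 0.1; this ratio was chosen after its values were seen).

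The stretch of 60 coding bases below, within 1 exon of each gene, has the most differences among such aligned coding stretches. It shows 1 place where a read can tell the thiolase transcripts apart, and the untranslated parts were not searched for it. The capitals mark the 11 differing bases, coding bases 460 to 519 of both genes, at chr9:119346483-119346542 (plus strand) for Acaa1a and chr9:119151842-119151901 (minus strand) for Acaa1b in GRCm38.
Acaa1a: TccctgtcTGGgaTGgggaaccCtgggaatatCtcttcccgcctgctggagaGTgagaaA
Acaa1b: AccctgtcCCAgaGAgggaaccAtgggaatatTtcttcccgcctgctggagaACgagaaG

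The promoter windows of this pair were compared only by their longest exact run, without an alignment and without other pairs as a background. The RefSeq windows from 250 bases before to 50 after the annotated start (GRCm38.p6) are printed because the groups did not overlap for Acaa1b and did for Acaa1a; the longest run of bases that they share is 8, on either strand. The RefSeq start of Acaa1a lies inside the GENCODE gene, downstream of its first base, so its window may not correspond to that of Acaa1b. The windows lie at chr9:119341044-119341343 on the plus strand and chr9:119157044-119157343 on the minus strand.
Acaa1a: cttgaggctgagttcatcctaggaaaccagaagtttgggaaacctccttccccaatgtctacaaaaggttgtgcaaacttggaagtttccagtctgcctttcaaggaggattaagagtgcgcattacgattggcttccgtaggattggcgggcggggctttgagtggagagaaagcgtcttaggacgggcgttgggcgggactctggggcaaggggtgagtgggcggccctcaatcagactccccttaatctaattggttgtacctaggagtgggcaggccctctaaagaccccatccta
Acaa1b: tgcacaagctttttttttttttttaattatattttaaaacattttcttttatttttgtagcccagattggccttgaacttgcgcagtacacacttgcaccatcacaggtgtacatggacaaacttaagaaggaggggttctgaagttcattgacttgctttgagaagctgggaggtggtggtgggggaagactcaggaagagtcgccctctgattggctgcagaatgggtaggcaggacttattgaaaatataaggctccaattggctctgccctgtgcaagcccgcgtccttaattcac

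PPAR-alpha binds DNA with RXR at a direct repeat with 1 base between its arms. The letters AGGTCA, any 1 base and again AGGTCA were searched on both strands of all 32851 RefSeq promoter windows of 300 bases, 40 of which belong to 36 of the 41 genes. The single arm AGGTCA occurs in 16.3% of all windows, in 8 of the 40 and in neither thiolase window. Bases outside these windows were not searched, so a window without a match does not show that the gene lacks a site. An exact match was found in 0 of the 40 windows and in 0.0396% of all windows. With up to 2 mismatches, 5 of the 40 windows (12.5%) held a match, against 3.86% of all windows. The closest was in Acot12, a cytosolic acetyl-CoA hydrolase gene, with 1 mismatch on the minus strand from position -110 (the annotated start is 0), in capitals in its window at chr13:91741271-91741570 (plus strand, GRCm38.p6).
Acot12: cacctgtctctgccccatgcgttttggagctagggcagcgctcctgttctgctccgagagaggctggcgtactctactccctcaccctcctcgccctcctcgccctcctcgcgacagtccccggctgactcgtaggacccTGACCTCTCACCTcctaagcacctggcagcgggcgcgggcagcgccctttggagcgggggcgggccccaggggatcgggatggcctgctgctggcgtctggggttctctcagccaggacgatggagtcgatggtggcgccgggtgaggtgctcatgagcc

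The remaining matches had 2 mismatches and are printed as they stand in the window: TGACCTTTGGCCG in Acot4 from -13, AGGACAGAGGTGA in Acox2 from 9, AGGTCACGGGTCC in Echs1 from -83 and TTACCTTTGCCCT in Etfa from -77. These are matches of letters, and none of the 5 genes passed the threshold or had groups that did not overlap. Acot12 was at 23.2 ± 1.42 FPKM across wild type and 25.4 ± 6.10 FPKM in knockout (SD, n = 3 each).

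**Figure D2:**
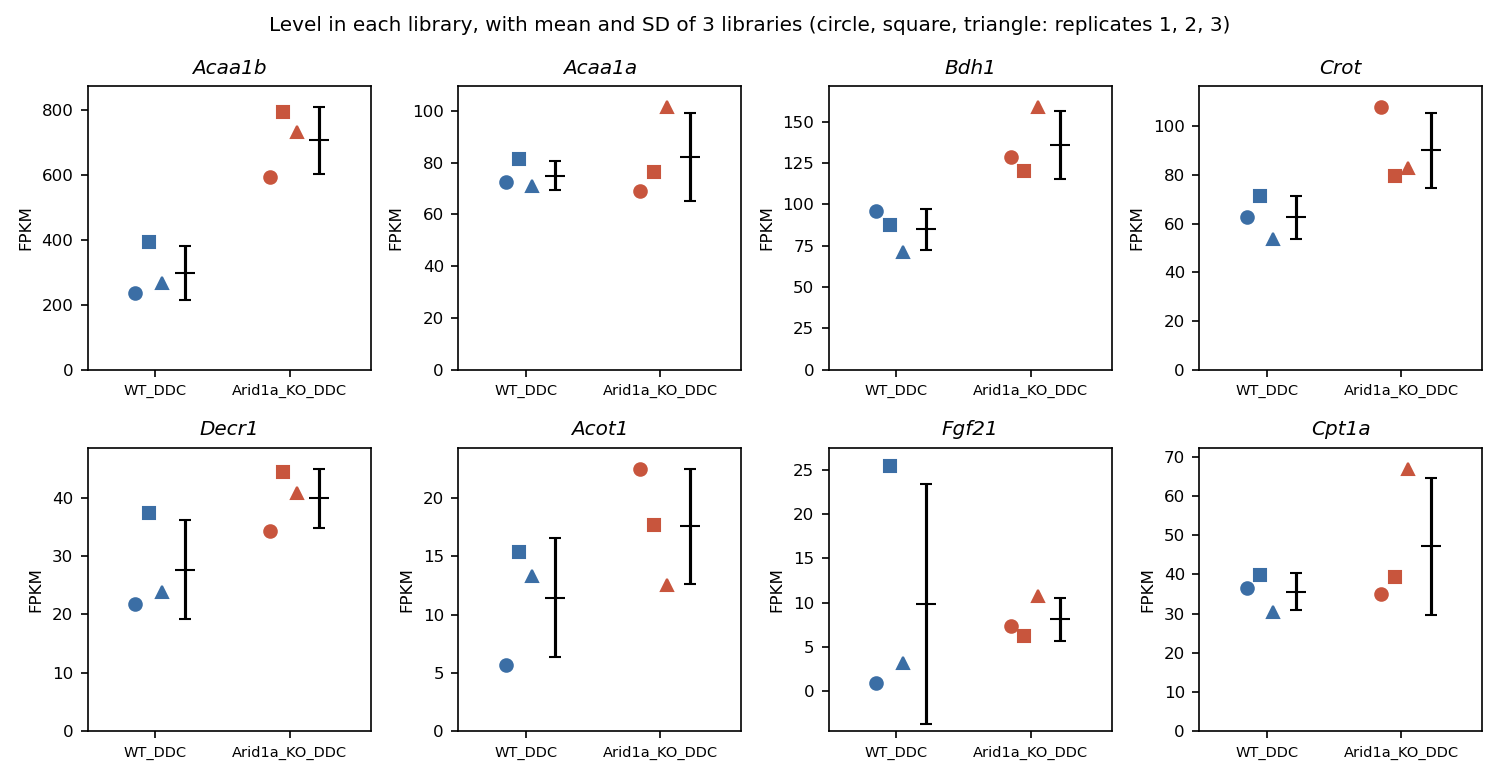
Level in FPKM of 8 genes in each library, with the mean and SD of 3 libraries beside the points (circle, square and triangle for replicates 1, 2 and 3). Acaa1b, Bdh1 and Crot do not overlap between the groups, Acaa1a does, and for Fgf21 a single wild-type library at 25.5 FPKM sets the wide SD.

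The first step, activation to acyl-CoA by long-chain synthetases, had near-equal group means. Acsl1, the main hepatic synthetase, was at 89.3, 74.9 and 85.1 FPKM across wild type and 53.3, 73.4 and 127 FPKM in knockout. The knockout libraries held both the lowest and the highest value (log2 difference -0.06, SE 0.30, limma adjusted p = 0.957). Acsl5 and Acsl4, a synthetase with a preference for arachidonic acid, had differences of 0.0019 and 0.12.

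Of the carnitine transferases, 1 stood higher in the knockout without overlap. Crot, which makes carnitine esters of the medium-chain products of peroxisomes, was at 62.9, 71.3 and 53.5 FPKM across wild type and 108, 79.5 and 82.9 FPKM in knockout. Every knockout library was above every wild-type library, with knockout replicate 2 the closest (log2 difference 0.52, SE 0.18, limma adjusted p = 0.350). Cpt1a, the rate-limiting carnitine palmitoyltransferase of the outer mitochondrial membrane, was at 36.5, 39.7 and 30.4 FPKM across wild type and 35.1, 39.3 and 67.0 FPKM in knockout. Knockout replicate 3 alone was high, and the difference of 0.35 (SE 0.26, limma adjusted p = 0.674) was 0.07 without that library. Cpt2, its partner of the inner membrane, had a difference of 0.06. Crat, which acts on acetyl groups, was at 16.7, 21.2 and 28.3 FPKM across wild type and 16.6, 22.3 and 22.6 FPKM in knockout (-0.08).

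The acyl-CoA dehydrogenases, which open a turn of the oxidation cycle and differ in chain length preference, did not separate the groups. All 5 had small positive differences, from 0.04 for Acadm (medium chain) to 0.18 for Acads (short chain), with Acadvl (very long chain) at 0.13, Acadl (long chain) at 0.13 and Acad11, which acts on very long chains, at 0.06. Acadm was the most abundant of them, at 188.5 ± 17.2 FPKM across wild type and 196 ± 42.1 FPKM in knockout, and its interval ran from -0.41 to 0.48. The acceptors of electrons from mitochondrial dehydrogenases were as close between the groups. Etfb, a subunit of the electron transfer flavoprotein, was at 286.5, 322.5 and 330 FPKM across wild type and 232, 370 and 379 FPKM in knockout, with a difference of 0.03. It was the third most abundant gene of the set. Etfa, the other subunit, was at -0.02. Etfdh, which passes the electrons on to ubiquinone, was at 51.2, 55.7 and 53.45 FPKM across wild type and 43.7, 39.6 and 60.3 FPKM in knockout and had the most negative difference of the 41 genes (-0.18, SE 0.18, limma adjusted p = 0.757), which was -0.0572 without knockout replicate 2 and -0.35 without knockout replicate 3. Its groups overlapped.

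The later mitochondrial steps gave 1 gene with a small unadjusted p. Decr1, a 2,4-dienoyl-CoA reductase that unsaturated fatty acids need, was at 21.8, 37.4 and 23.8 FPKM across wild type and 34.3, 44.4 and 40.9 FPKM in knockout. Wild-type replicate 2 reached into the knockout range (log2 difference 0.54, SE 0.23, unadjusted p = 0.0478, limma adjusted p = 0.442). Acaa2, the mitochondrial 3-ketoacyl-CoA thiolase and the second most abundant gene of the set, was at 304, 318 and 354 FPKM across wild type and 290, 423 and 480 FPKM in knockout (0.26, SE 0.21, limma adjusted p = 0.701; 0.11 without knockout replicate 3 and 0.47 without knockout replicate 1). Hadha and Hadhb, the subunits of the trifunctional protein, lie head to head on chromosome 5 with 85 bases between them. Hadha was at 80.1, 94.9 and 82.5 FPKM across wild type and 88.6, 68.0 and 89.9 FPKM in knockout (-0.07), and Hadhb had a difference of 0.12. Echs1, the short-chain enoyl-CoA hydratase, was at 139, 103.9 and 115 FPKM across wild type and 104.4, 102.5 and 119 FPKM in knockout, the second most negative difference (-0.13, SE 0.16). The dehydrogenase Hadh and the isomerase Eci1 had differences of 0.09 and 0.29. In Hadhb and Etfb, 62.4% and 67.3% of the windows of 50 bases also occur in transcripts of other annotated genes, so their levels are less certain than the others.

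The peroxisomal enzymes beside Acaa1b spread more between libraries than between the groups. Of the 9 genes grouped here by this role, thiolases included, 8 had a positive difference, with a median of 0.20. Peroxisomal Acot3, Acot4 and Acot8 are counted with the thioesterases. Ehhadh, the bifunctional hydratase and dehydrogenase, was at 190, 124 and 105.8 FPKM across wild type and 178, 141 and 152 FPKM in knockout, and Hsd17b4, the second bifunctional enzyme, had a difference of -0.02. For Ehhadh the highest value was that of wild-type replicate 1. Acox2, an oxidase of branched chains and of bile acid precursors, was at 0.24, the reductase Decr2 at 0.26, the isomerases Eci2 and Ech1 at 0.07 and 0.27, and Pex11a, which takes part in peroxisome division, at 0.07. The smallest limma adjusted p among these 7 genes was 0.728, for Ech1.

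The acyl-CoA thioesterases release free fatty acid from CoA. Acot1 (cytosolic), Acot2 (mitochondrial), Acot3 and Acot4 (peroxisomal) lie in 1 cluster on chromosome 12, from 83987861 to 84060402. Acot1 was at 5.67, 15.4 and 13.3 FPKM across wild type and 22.5, 17.7 and 12.6 FPKM in knockout. The low wild-type replicate 1 and the high knockout replicate 1 made most of the difference (0.64, SE 0.37, limma adjusted p = 0.589). Acot3 was at 5.34, 2.19 and 4.36 FPKM across wild type and 5.43, 6.25 and 5.60 FPKM in knockout. These groups did not overlap, by a margin of less than 0.1 FPKM (0.50, SE 0.26, limma adjusted p = 0.541; 0.21 without wild-type replicate 2). Acot2 was at 4.65, 9.32 and 4.78 FPKM across wild type and 7.74, 6.66 and 4.46 FPKM in knockout, and Acot4 at 3.53, 3.13 and 4.68 FPKM and 4.73, 3.54 and 3.32 FPKM. Neither differed by more than 0.04 on the log2 scale. The coding sequences of Acot1 and Acot2 are 95.6% identical and share 23.7% of the windows of the Acot1 transcript, and the other pairs are 75.3% to 84.5% identical. The sum of Acot1 and Acot2, 10.3, 24.7 and 18.1 FPKM across wild type and 30.2, 24.3 and 17.0 FPKM in knockout, overlapped (exact permutation p = 0.5). Acot8 and Acot12 had differences of 0.22 and 0.10.

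Of the ketone body genes, Bdh1 stood higher in the knockout. Bdh1, the mitochondrial dehydrogenase that interconverts acetoacetate and beta-hydroxybutyrate, was at 95.8, 87.5 and 71.2 FPKM across wild type and 129, 120 and 159 FPKM in knockout. All knockout libraries were above all wild-type libraries (log2 difference 0.67, SE 0.18, 95% interval 0.26 to 1.09, limma adjusted p = 0.224; exact permutation p = 0.1). The difference was 0.56 to 0.80 over the 17 alternatives, and none brought the adjusted p under 0.05. Acat1, the mitochondrial acetoacetyl-CoA thiolase, was at 42.3, 52.2 and 48.8 FPKM across wild type and 35.3, 45.6 and 58.2 FPKM in knockout (-0.07). Other genes of ketone body synthesis and use, from a list of 10 of which 8 were tested, gave 0 past the threshold and 1, Bdh2, at an unadjusted p under 0.05. Bdh2, a cytosolic dehydrogenase, was at 2.81, 3.38 and 4.96 FPKM across wild type and 10.8, 14.0 and 20.5 FPKM in knockout (1.76, SE 0.27, limma adjusted p = 0.0573, and 0.0347 to 0.186 over the alternatives). Slc16a7 and Slc16a6, monocarboxylate transporters, were at 0.30 and 0.35, and Aacs at 0.34.

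Pdk4, the kinase that inhibits pyruvate dehydrogenase when fat is burned, and Fgf21, a hormone secreted by the fasting or stressed liver, are both targets of PPAR-alpha. Pdk4 was at 3.85, 5.42 and 4.67 FPKM across wild type and 6.47, 5.89 and 4.83 FPKM in knockout (0.26, SE 0.17, limma adjusted p = 0.636; 0.15 without wild-type replicate 1). Fgf21 was at 0.890, 25.5 and 3.13 FPKM across wild type and 7.31, 6.19 and 10.8 FPKM in knockout. The wild-type libraries held both the highest and the lowest value, a range of 28.6-fold, the widest of the 41 genes. The mean was lower in the knockout on the FPKM scale (8.10 against 9.84) and higher on the log2 scale (0.59, SE 0.89, limma adjusted p = 0.842). Without wild-type replicate 2 the log2 difference was 1.67, and without wild-type replicate 1 it was -0.23.

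**Figure D3:**
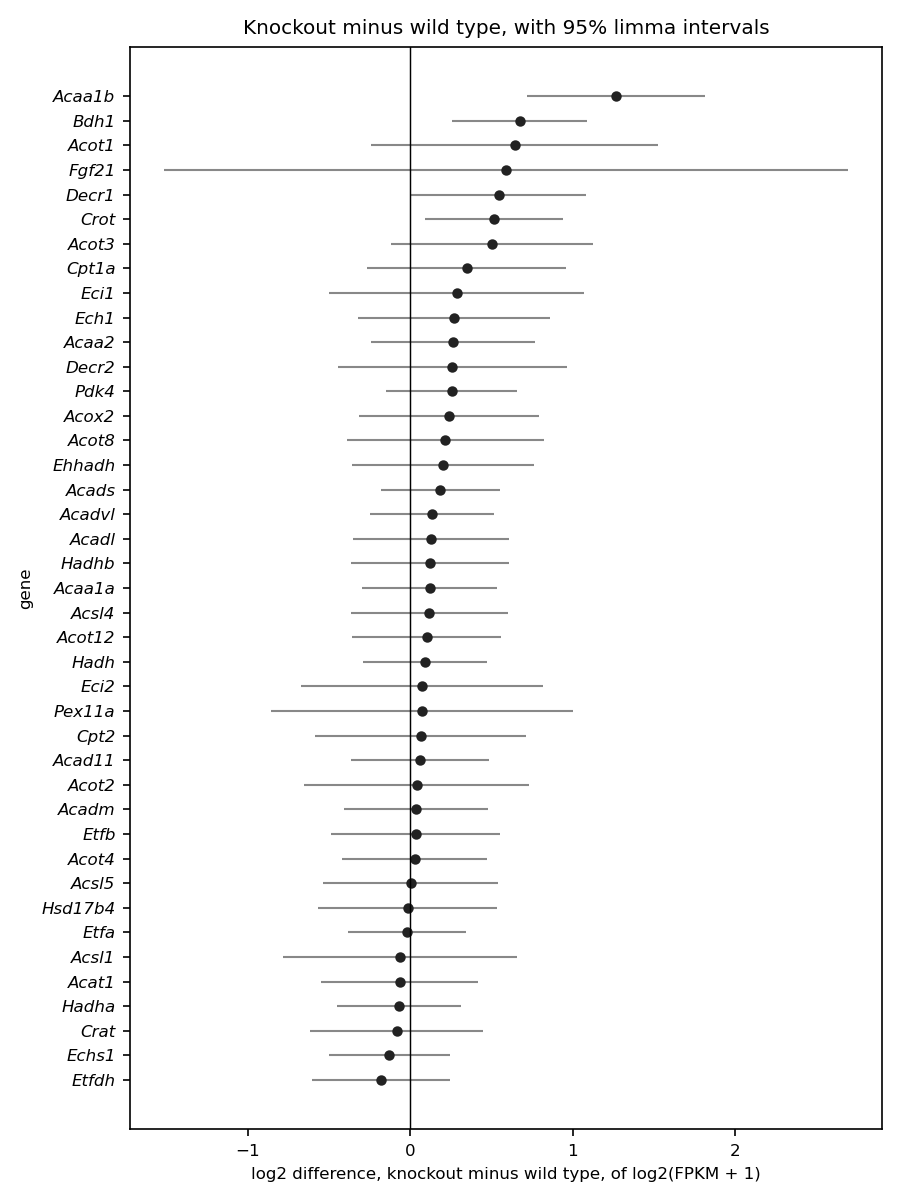
Log2 difference (knockout minus wild type, of log2(FPKM + 1)) of each of the 41 genes, with its 95% limma interval, ordered by size. Acaa1b lies at 1.27, Etfdh is lowest at -0.18, and 37 of the 41 intervals include 0.

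Across the set, 33 of 41 differences were positive (80.5%, against 50.6% of all genes tested), and this count rested on single libraries. Without wild-type replicate 1 it was 23 of 41 with a median of 0.02, and without knockout replicate 3 it was 22 of 41 with a median of 0.02. Without knockout replicate 1 it was 34 of 41, with a median of 0.26. Knockout replicate 3 held the highest value for 24 of the 41 genes and the lowest for 1, whereas over all genes it was highest for 20.6%. The lowest value was in knockout replicate 1 for 16 genes and in wild-type replicate 1 for 13, against 18.5% and 24.6% of all genes. The summed level of the 41 genes was 3296, 3772 and 3491 FPKM across wild type and 3585, 4372 and 4941 FPKM in knockout. Leaving Acaa1b out, the sums were 3061, 3380 and 3223 FPKM against 2990, 3576 and 4209 FPKM, and the groups overlapped.

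**Figure D4:**
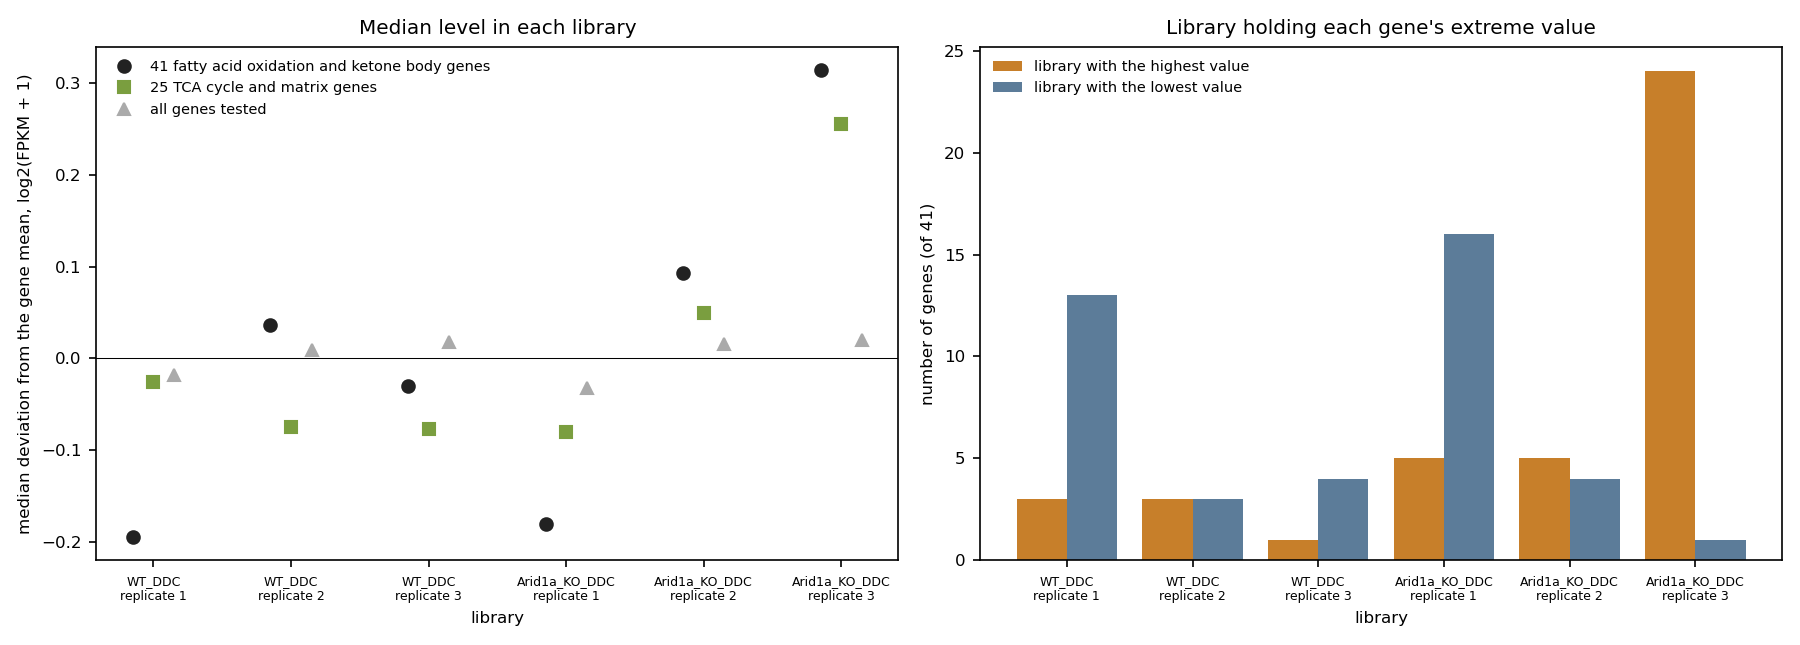
Left, median deviation of each gene from its mean over the 6 libraries, in log2(FPKM + 1), for the 41 genes, 25 genes of the TCA cycle and mitochondrial matrix and all genes tested. Right, number of the 41 genes with their highest or lowest value in each library: knockout replicate 3 holds 24 of the highest values, and replicate 1 of the 2 groups holds 29 of the lowest.

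Markers of cell types also differed between the libraries, and their part in this pattern was not tested. Total liver RNA cannot tell fewer cells of a type from less RNA per cell. Of 10 hepatocyte markers 9 had a row, including Alb and Hnf4a at high levels, and their sum was 47840 to 51210 FPKM across wild type and 48870 to 60230 FPKM in knockout, highest in knockout replicate 3. Most of this sum was Alb (26590 to 34010 FPKM). Of these markers 0 passed the threshold, and they did not move together: 6 had positive and 3 negative differences. Ttr was higher in the knockout without overlap (0.60, limma adjusted p = 0.315) and Cyp3a11 lower without overlap (-0.60, limma adjusted p = 0.330), with Cyp2e1 at -1.29 and Cps1 at -0.36 with overlap (limma adjusted p = 0.430 and 0.610). The sum of 8 macrophage markers was 556 to 688 FPKM across wild type and 338 to 520 FPKM in knockout, lowest in knockout replicate 3, as was that of 9 stellate cell and fibroblast markers (193 to 284 against 119 to 208 FPKM). All 7 endothelial markers had negative differences (50.7 to 81.7 against 28.9 to 75.0 FPKM), and the summed 8 biliary markers ranged from 132 to 404 and from 211 to 423 FPKM. Most of that sum was Spp1, the 1 biliary marker with a positive difference (0.28); the median of the 8 was -0.64. Of the biliary markers 2 fell: the tight junction gene Cldn4 (-1.42, limma adjusted p = 0.0386) and the keratin Krt23 (-1.99, limma adjusted p = 0.0447). Sox9 and Epcam were lower without overlap (-1.21 and -0.67, limma adjusted p = 0.0815 and 0.307). B and plasma cell markers, 4 of 6 with a row, ranged from 53.7 to 109 FPKM and from 1.54 to 151 FPKM. T and NK cell markers, 5 of 6, were at 12.3 to 19.2 and 1.91 to 10.2 FPKM, and 2 neutrophil markers at 28.9 to 54.6 and 11.5 to 24.3 FPKM. Adipocyte and muscle markers were not analysed here. The 25 genes of the TCA cycle and the mitochondrial matrix also had their highest median deviation in knockout replicate 3 (0.26, against 0.31 for the 41 genes and 0.02 for all genes).

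Within replicate 1, with 1 library per group, 20 of the 41 genes were higher in the knockout (median -0.0078), and within replicates 2 and 3, 34 of 41 were (median 0.19). The sign differed between the sets for 24 of the 41 genes, against 42.2% of all genes. Acaa1b was higher in the knockout by 1.34 and 1.23 in the 2 sets, Bdh1 by 0.42 and 0.80 and Crot by 0.77 and 0.39. Decr1 was higher by 0.63 and 0.50 and Acot3 by 0.0183 and 0.74. Groups without overlap, as for all of these but Decr1, fix a positive sign in both sets in advance. Decr1 was picked by its p over the same 6 libraries, so none of these like signs is independent support. Acot1 was higher by 1.82 in replicate 1 and by 0.05 in the others, and Decr2 and Acox2 lay at -0.35 and -0.34 in replicate 1 and at 0.56 and 0.53 in the others. Tested as an interaction in limma, in which replicate 1 has 1 library per group and the spread therefore comes from replicates 2 and 3 alone, the difference between the sets passed for 0 of the 41 genes and for 0% of all genes, with 3 of the 41, Acot1, Decr2 and Acox2, at an unadjusted p under 0.05 (9.05% of all genes). The smallest limma adjusted p of this interaction among the 41 genes was 0.413, for Acot1. With a pseudocount of 5, no filter, a filter at 5 FPKM or a robust fit, 3 to 5 of all genes passed, and 0 of the 41. A p that misses the threshold does not show that the sets are alike.

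**Figure D5:**
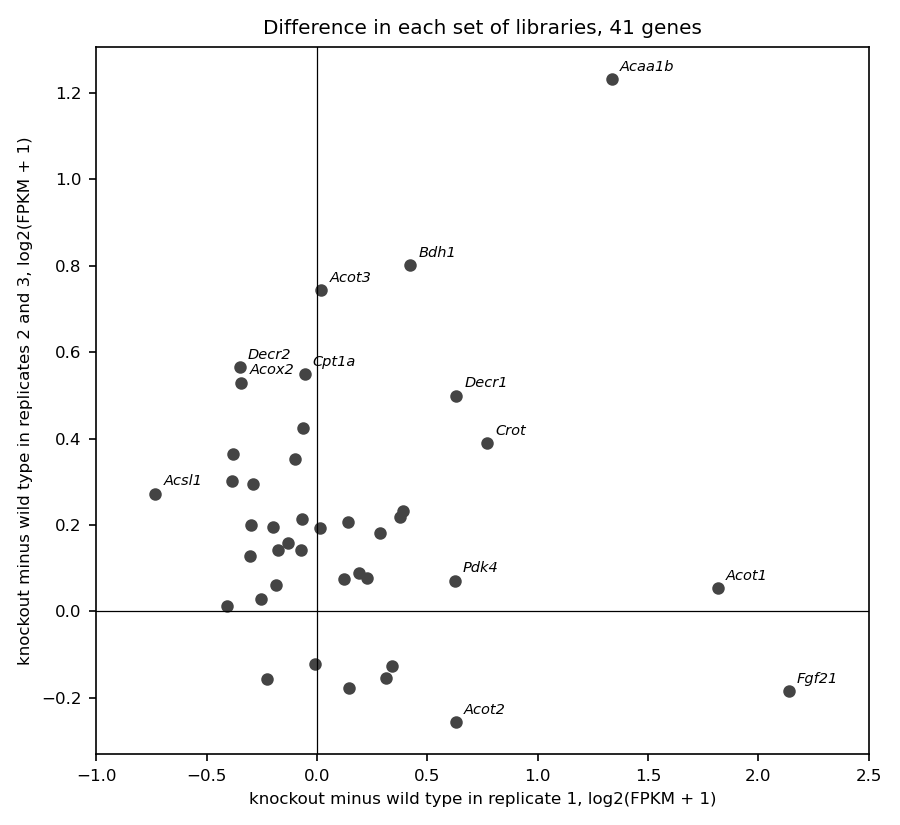
Knockout minus wild type difference of the 41 genes on the log2(FPKM + 1) scale in replicate 1 (horizontal, 1 library per group) and in replicates 2 and 3 (vertical, 2 libraries per group). Acaa1b is at the upper right at 1.34 and 1.23, and 24 genes lie in the quadrants of unlike sign.

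The regulators of the pathway did not differ past the threshold. Ppara was at 3.77, 1.59 and 1.58 FPKM across wild type and 2.23, 1.92 and 3.39 FPKM in knockout. Its groups overlapped (0.13, SE 0.29, limma adjusted p = 0.906). Ppargc1a, a coactivator gene, was at 0.400 to 1.24 FPKM and not tested. Of 18 listed regulators 16 were tested, and 0 passed, with 1 at an unadjusted p under 0.05 and a median of 0.03. Foxa2, a hepatocyte transcription factor, was at 0.46 with groups that did not overlap (limma adjusted p = 0.390). The coactivator Ncoa1 lay at -0.23, also without overlap, Rxrb at 0.23 and Ppard at -0.36.

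Known targets of PPAR-alpha outside the set did not move in 1 direction. Of 36 tested 1 rose, Fabp1, the fatty acid binding protein of hepatocytes, from 961 to 1573 FPKM in wild type to 3878 to 4297 FPKM in the knockout (1.69, limma adjusted p = 0.0381, and 0.0295 to 0.153 over the alternatives). In the list 0 fell, with a median of 0.07 and 21 positive differences. At an unadjusted p under 0.05, 7 were higher and 2 lower, against 4.65% and 6.5% of all genes. The groups did not overlap for 6 with the knockout higher and 3 with it lower, against 7.09% and 9.56% of all genes. Aldh1b1, a mitochondrial aldehyde dehydrogenase, was at 0.95 and Cyp8b1 at 2.19, with Aldh3a2, which oxidises fatty aldehydes, at -1.13 (limma adjusted p = 0.102, 0.147 and 0.140). Among the fatty acid omega-hydroxylases, Cyp4a14 was at 52.7, 17.2 and 21.97 FPKM across wild type and 116, 51.6 and 50.7 FPKM in knockout. Its groups overlapped because of wild-type replicate 1 (1.27, SE 0.48, limma adjusted p = 0.395, and 0.0325 with the library set term). Cyp4a31 was at 0.98 without overlap (limma adjusted p = 0.341), and Cyp4a10 and Cyp4a32 were at 0.28 and 0.06. Cyp4a12a was at 12.3, 68.7 and 19.0 FPKM across wild type and 1.72, 123 and 205 FPKM in knockout. It lay at -2.29 in replicate 1 and 2.10 in the others, sets that also differed in Y-linked transcripts. Cyp4a12b was at -0.96 (limma adjusted p = 0.721). The Cyp4a genes are close paralogs in 1 cluster, so the split of reads among them is uncertain.

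Further lists, some of which share genes with the targets above, also gave 0 genes past the threshold. Of 35 other fatty acid oxidation genes tested 20 were positive, with a median of 0.04, and an unadjusted p under 0.05 was reached by 2 in each direction. Acot11, a thioesterase, was at 5.26, 5.75 and 7.06 FPKM across wild type and 2.32, 1.99 and 2.67 FPKM in knockout. Its groups did not overlap, with the knockout lower (-1.07, SE 0.16, limma adjusted p = 0.0572). Acsm3, a medium-chain synthetase, was at 1.17 and Acad12 at 0.72 (limma adjusted p = 0.243 and 0.416). Of 19 peroxisome biogenesis and membrane genes 15 were positive and 4 negative, and 0 had an unadjusted p under 0.05. Their median was 0.18, in a range of -0.69 to 0.36. Pex10 was at 0.28, Pex13 at 0.25, Pxmp2 at 0.33 and Pex6 at 0.36 (limma adjusted p = 0.533 to 0.648).

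Of 18 genes of fatty acid synthesis, the opposite pathway, 15 had a positive difference, with a median of 0.19, and an unadjusted p under 0.05 was reached by 2 in the higher and 1 in the lower direction. Elovl6, an elongase, was at 0.70 and Acacb, whose product malonyl-CoA inhibits Cpt1a, at 4.70 to 6.63 FPKM across wild type and 7.86 to 12.8 FPKM in knockout (0.68, limma adjusted p = 0.296). Acaca, which supplies malonyl-CoA for synthesis, was lower without overlap (-0.40, limma adjusted p = 0.395), and the malic enzyme Me1 was at 0.40. Of the 25 TCA cycle and matrix genes 18 were positive, with a median of 0.05, and an unadjusted p under 0.05 was reached by 1 in each direction. All such counts in these lists are to be read against 4.65% of all genes higher and 6.5% lower. The groups of Idh2, an isocitrate dehydrogenase (-0.78), and Dlat, a pyruvate dehydrogenase subunit (-0.33), did not overlap with the knockout lower, and those of Hspd1 (0.34) and Pdhb (0.29) with the knockout higher (limma adjusted p = 0.206 to 0.483). The shares of genes without overlap in these lists, 25% for the PPAR-alpha targets, 14.3% for the other oxidation genes, 5.26% for peroxisome biogenesis, 16.7% for synthesis and 24% for the TCA cycle, are to be read against the 16.6% of all genes, and the 41 genes stood at 9.76%.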

How the data were processed

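The authors deposited a table of log2 FPKM with a column for each library. The submitters' processing notes name TopHat2 2.0.6, Cufflinks, mm10 and GRCm38; neither the annotation nor the handling of multi-mapping reads is stated. The lowest value, -10, marks an FPKM of 0; the offset of 0.000977 this implies was removed (checked on 60079 values, of which 100% then had 6 significant digits). The FPKM as deposited keep no counts, so read depth is unknown; 11280 to 11712 genes per library had at least 1 FPKM.

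Genes with at least 1 FPKM in at least 3 of 6 libraries (11839, among them all 41) were fitted with limma 3.58.1 in R 4.3.3 on log2(FPKM + 1), with an eBayes trend, two-sided, and Benjamini-Hochberg adjustment over all of them (threshold 0.05). Permutation tests were exact and two-sided. Alternatives were other pseudocounts, filters, scalings and limma settings, terms for replicate number or library set, and leaving out libraries. Members, lists and alternatives were chosen with earlier results of these data known. Full values are given for genes at an unadjusted p under 0.05, the 6 highest and 6 lowest differences, the 3 most abundant, and Cpt1a, Pdk4, Fgf21, Acaa1a and Acot1 to Acot4; of other lists up to 4 genes with the smallest p, and Ppara, Ppargc1a and the Cyp4a genes. Further genes named were chosen after their values were seen. Shared windows of 50 bases were counted on GENCODE M21 transcripts.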

Additional observations from a re-analysis of the deposited data

How the results depend on the processing

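Of the 41 genes 0 passed the threshold in the 17 alternatives, except that Acaa1b passed (1 gene) with a term for the library set. Over all genes 58 passed, against 92 with the library set term and 0 to 67 when 1 library was left out: 35 without WT_DDC replicate 1, 6 and 2 without WT_DDC replicates 2 and 3, and 0 without Arid1a_KO_DDC replicate 3. With the replicate number as a block 0 passed; same-numbered libraries had correlations of 0.346, 0.133 and 0.0212 in their deviations from the group means, and not every library correlated best with its own number, so the numbers were not taken as pairs. The interaction with the library set passed for 0 of the 41 genes in each of 9 settings. The median difference of the 41 genes was 0.0214 to 0.258 when 1 library was left out, and 0.0908 with quantile normalization. Of the 41 genes 17 kept the sign of their difference under all alternatives, and 11 changed it under alternatives other than leaving out 1 library. In the libraries L0602 to L0605 alone the difference was 0.27 for Acsl1, 0.0128 for Echs1, -0.26 for Acot2, -0.13 for Acot4, 0.028 for Acat1 and -0.18 for Fgf21, and with quantile normalization -0.0513 for Etfb, each of the opposite sign to its reported value. With 1 library left out the range was -0.40 to 0.22 for Acsl1, -0.26 to 0.10 for Crat, -0.14 to 0.0589 for Hadha, -0.091 to 0.26 for Etfb, -0.0399 to 0.23 for Acaa1a, -0.11 to 0.32 for Acot2, -0.10 to 0.16 for Acot4, -0.24 to 0.11 for Acat1 and -0.23 to 1.67 for Fgf21. The cause of these changes was not tested. Acot4, Pdk4, Acot3 and other genes of a few FPKM have log2 differences that the pseudocount of 1 shrinks.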
